A study of Mus musculus with 6 samples.

Results

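The genes of oxidative phosphorylation were followed here through droplet single-cell RNA libraries of Empty vector and Bmal1 WT samples. Members were taken by symbol: the 13 protein-coding genes of the mitochondrial genome, and nuclear genes named as subunits of complex I (Nduf), complex II (Sdha to Sdhd), complex III (Uqcr), complex IV (Cox4 to Cox8) and ATP synthase (Atp5), without Ndufa4l2. This gave 105 of the 31053 genes of the matrices, 13 of them mitochondrial and 92 nuclear, where Atp5o stood under 2 identifiers. By complex, 7 mitochondrial and 44 nuclear members belonged to complex I, 4 nuclear members to complex II, 1 and 8 to complex III, 3 and 19 to complex IV, and 2 and 17 to complex V. The symbol pattern also took in the 8 complex I assembly factors Ndufaf1 to Ndufaf8, the supercomplex factor Cox7a2l and Atp5s, which are not subunits. Of all members 101 had at least 1 UMI, that is 1 counted molecule, in the cells kept for analysis, and Cox7b2, Cox8b, Cox8c and 1 of the Atp5o identifiers had 0.

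The labels give YUMM2.1, a mouse melanoma cell line, as the source of every sample and name the groups Empty vector and Bmal1 WT, after the circadian transcription factor BMAL1, which binds E-box DNA. They give no tissue, animal, treatment or time. Each group was 1 library that held 3 replicates marked by antibody hashtags, h1, h7 and h8 for Empty vector and h3, h5 and h9 for Bmal1 WT, so that group and library cannot be told apart. Whether replicates were separate cultures or animals is not labelled, and p-values therefore measure only the spread between these 3 hashtags. A further labelled group, Bmal1 bHLH, was not used, because its 3 files were identical to those of Bmal1 WT. Bmal1 itself (Arntl) had 56.3, 79.1 and 52.4 CPM in the Empty vector replicates of melanoma-gated cells, where CPM are UMIs scaled to a total of 1000000 gene UMIs. The Bmal1 WT replicates had 50.5, 65.4 and 60.8 CPM, which overlapped (log2 fold change 0.02, SE 0.24, edgeR adjusted p = 0.9999). Bmal1 RNA was thus not measured higher in these cells of the library labelled Bmal1 WT. In T cells Arntl had 31.3, 39.5 and 24.9 CPM against 24.1, 23.5 and 15.3 in that library, lower without overlap (log2 fold change -0.51, SE 0.24, edgeR adjusted p = 0.256). In NK cells the log2 fold change was -0.68 (SE 0.30, adjusted p = 0.364), with overlap. In fibroblasts the log2 fold change was 0.75 (SE 0.55, edgeR adjusted p = 0.640), with overlap. None of these differences was called, so Arntl RNA neither bore out nor contradicted the label. Whether RNA of a Bmal1 construct would be counted as Arntl was not tested. Every direction given below rests on the labels alone.

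Oxidative phosphorylation passes electrons from NADH and succinate through complexes I to IV to oxygen, pumps protons across the inner mitochondrial membrane, and lets ATP synthase use the gradient. Its subunits come from 2 genomes: the mitochondrial DNA codes for core subunits of complexes I, III, IV and V, and every subunit of complex II and the remaining subunits of the other complexes are nuclear and imported. Transcription of many nuclear subunits is known to involve NRF1, ETS-family factors of the GABP type and YY1, while the mitochondrial DNA is transcribed as long precursors from a few promoters and cut into separate RNAs. In single-cell libraries the share of mitochondrial UMIs is also commonly used to discard damaged cells, which makes the measured level of these 13 genes depend on the filter applied.

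Promoter windows from 250 bases before to 50 bases after the RefSeq start (GRCm38.p6) were found for 74 of 91 nuclear symbols. The NRF1 letters, GCGCA followed by any base and GCGC, were present on either strand in 19 of the 74 (25.7%), against 5.19% of 27025 genes with a window. The ETS letters CCGGAAG stood in 24.3% of members against 9.93% of all genes, and the YY1 letters AAGATGGC in 13.5% against 3.19%. The E-box letters CACGTG, which BMAL1 can bind, stood in 5 of 74 members (6.76%) against 8.09% of all genes. The letters of one motif do not contain those of another, and 43 of the 74 members held at least 1. A symbol with several windows was counted as holding a motif if any of them did. The members' windows had a mean GC content of 57.7%, against 53.6% over all genes. A match is a description of letters and not a bound site. The windows of 4 members that recur in the results are shown, with the searched letters on either strand in capitals: Cox8a, the nuclear member with the most UMIs, Atp5l, which was among the 5 with the most UMIs and held an E-box, Atp5h, which had one of the lowest p values between the groups in T cells, NK cells and dendritic cells, and Cox5b, which did so in NK cells, dendritic cells and fibroblasts.
Cox8a, chr19:7217567-7217866, minus strand: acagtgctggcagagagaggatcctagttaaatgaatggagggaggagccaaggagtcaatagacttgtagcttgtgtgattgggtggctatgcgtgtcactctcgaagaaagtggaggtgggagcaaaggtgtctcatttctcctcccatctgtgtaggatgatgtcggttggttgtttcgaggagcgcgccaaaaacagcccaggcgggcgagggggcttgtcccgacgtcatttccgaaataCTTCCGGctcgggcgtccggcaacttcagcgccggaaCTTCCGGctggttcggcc
Atp5l, chr9:44920693-44920992, minus strand: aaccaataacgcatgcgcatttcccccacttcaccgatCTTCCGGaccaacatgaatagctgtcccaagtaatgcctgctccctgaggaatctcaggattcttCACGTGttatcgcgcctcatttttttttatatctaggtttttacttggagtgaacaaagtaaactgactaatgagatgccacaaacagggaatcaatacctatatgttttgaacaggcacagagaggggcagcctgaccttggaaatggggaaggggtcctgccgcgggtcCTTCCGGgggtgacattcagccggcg
Atp5h, chr11:115419870-115420169, minus strand: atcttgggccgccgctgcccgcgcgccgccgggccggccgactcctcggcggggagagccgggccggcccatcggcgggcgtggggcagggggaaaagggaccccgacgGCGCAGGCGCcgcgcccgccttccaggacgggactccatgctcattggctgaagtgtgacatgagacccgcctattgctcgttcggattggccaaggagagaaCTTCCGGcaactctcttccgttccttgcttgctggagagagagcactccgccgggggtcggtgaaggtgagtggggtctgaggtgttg
Cox5b, chr1:36691237-36691536, plus strand: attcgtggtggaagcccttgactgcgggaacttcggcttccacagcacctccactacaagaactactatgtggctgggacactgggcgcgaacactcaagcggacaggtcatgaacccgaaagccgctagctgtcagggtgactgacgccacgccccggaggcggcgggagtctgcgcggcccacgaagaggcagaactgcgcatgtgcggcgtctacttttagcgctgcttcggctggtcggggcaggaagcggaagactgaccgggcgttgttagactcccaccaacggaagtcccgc
Cox8a held the ETS letters at positions 246 and 283, counted from the first base shown. Atp5l held them at 39 and 275 and the E-box at 104, and Atp5h held NRF1 letters at 110 and ETS letters at 213. Cox5b held none of the 4 motifs in this window.

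The Empty vector library held 4147 barcodes with 34232927 gene UMIs and the Bmal1 WT library 2785 barcodes with 39561569, and 5 barcodes occurred in both. Barcodes with at least 200 genes and at most 20% mitochondrial UMIs were kept, 3978 (95.9%) and 2386 (85.7%). They had a median of 5094 UMIs in the Empty vector library, against 7570.5 in that of Bmal1 WT, whose barcodes thus had more UMIs. A single hashtag was assigned to 3222 and 1621 kept barcodes, none to 388 and 660, and several to 368 and 105, and only the first enter the replicates. Although the label is a cell line, most kept barcodes carried markers of immune cells. Barcodes were gated by the class with the most detected markers, and 1153 and 379 were T cells, 1114 and 408 NK cells, 689 and 393 macrophages or monocytes, 334 and 213 dendritic cells, 137 and 224 fibroblasts and 153 and 377 melanoma cells, in Empty vector and Bmal1 WT respectively. The melanoma gate rested on neural crest markers: 84.7% of its barcodes had S100b and 71.9% had Sox10, whereas the pigment genes Mlana and Tyrp1 had 0 UMIs, Pmel 6, Dct 4 and Tyr 8. These barcodes are therefore called melanoma-gated. In every class the median barcode held at least 4 of its own markers and at most 1 of any other class. The replicate sums used only barcodes with 1 hashtag. These were 1038 and 363 T cells, 925 and 370 NK cells, 630 and 357 macrophages or monocytes and 292 and 191 dendritic cells. Melanoma-gated cells came to 67 and 124, with 8 to 68 per replicate. Fibroblasts came to 31 and 46, with 8 to 18 per replicate.

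The 13 mitochondrial members made up between 2.27% and 6.21% of all gene UMIs when summed per class and replicate. T cells had the highest mean share, 5.07% ± 0.368 (SD, n = 6 replicates of both groups). Melanoma-gated cells followed with 4.92% ± 0.932 and NK cells with 4.72% ± 0.390. Dendritic cells had 4.10% ± 0.121, macrophages or monocytes 3.79% ± 0.194 and fibroblasts 3.33% ± 0.654. Of neighbours in this order, NK cells exceeded dendritic cells in 6 of 6 replicates (exact sign-flip permutation test, two-sided, p = 0.0312, adjusted over the 5 neighbour pairs 0.156), and the other 4 pairs gave unadjusted p from 0.0938 to 0.812. No neighbour pair passed the adjusted threshold of 0.05, and 0.0312 is the smallest p that 6 pairs allow. The melanoma-gated replicates overlapped both T and NK cells, because they ranged from 3.40% to 6.21%.

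Single mitochondrial genes differed between the classes. Each class was compared with the mean of the other 5 classes in edgeR with the hashtag replicate as a block, over 11928 genes. In melanoma-gated cells 9 of 13 mitochondrial members were called higher and 1 lower. T cells had 10 higher, and NK cells 5 higher, with none lower in either. Macrophages or monocytes had 9 lower, dendritic cells 6 lower and fibroblasts 11 lower, with none higher in these 3. Many genes differed between classes: 39.1% of all genes were called higher and 22.9% lower in melanoma-gated cells, 35.4% and 17.2% in T cells, 28.4% and 24.8% in NK cells, 22.2% and 41.1% in macrophages or monocytes, 22.2% and 27.4% in dendritic cells, and 31.3% and 19.1% in fibroblasts. Scaling by TMM instead of total UMIs moved the median log2 difference of all genes from 0.17 to -0.02 in melanoma-gated cells, from -0.37 to -0.06 in macrophages or monocytes and from 0.10 to -0.10 in fibroblasts, and the mitochondrial calls became 4 higher and 1 lower, 2 higher and 2 lower, and 0 higher and 11 lower. With TMM T cells had 6 higher, and dendritic cells 1 higher and 2 lower. Of all genes, TMM called 32.0% higher and 29.3% lower in melanoma-gated cells, 32.3% and 18.8% in T cells, 30.4% and 24.0% in macrophages or monocytes, 25.8% and 21.8% in dendritic cells and 25.2% and 26.7% in fibroblasts.

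**Figure D1:**
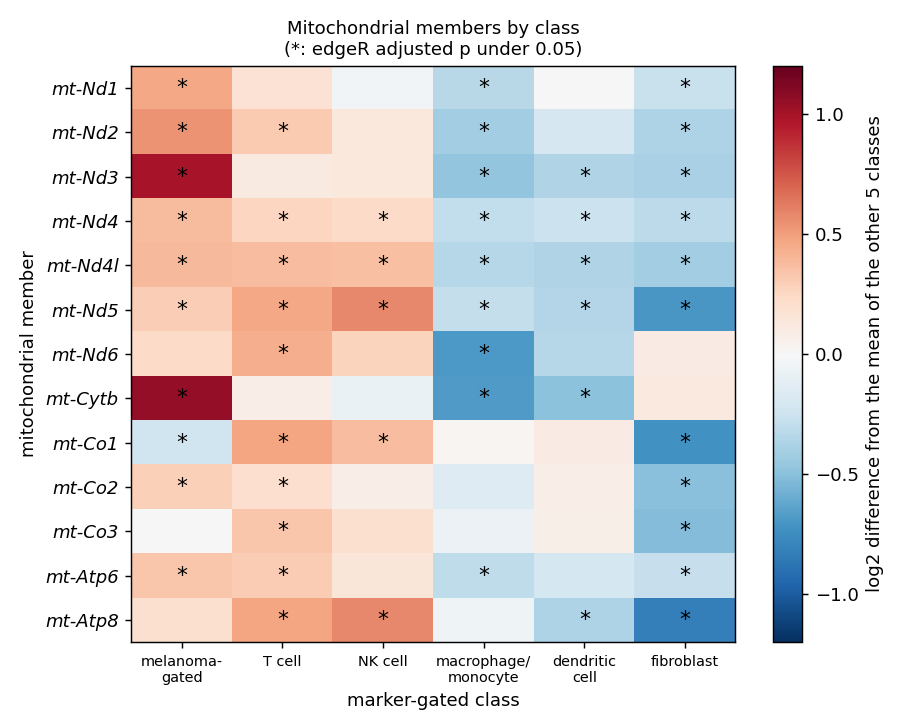
Log2 difference of each of the 13 mitochondrial members in each marker-gated class from the mean of the other 5 classes, from summed UMIs of 6 hashtag replicates. Red is higher and blue lower, and stars mark edgeR adjusted p under 0.05. mt-Cytb runs from 1.05 in melanoma-gated cells to -0.68 in macrophages or monocytes, and the fibroblast column is blue except for mt-Nd6 and mt-Cytb.

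The plot of mitochondrial members by class shows that the 13 genes did not move as a unit. mt-Cytb, the only mitochondrial subunit of complex III, was higher in melanoma-gated cells by 1.05 on the log2 scale (SE 0.09, edgeR adjusted p = 2.275e-11), with 6294 CPM ± 1588 (SD, n = 6) against 2311 ± 230 in macrophages or monocytes. In Empty vector the melanoma-gated replicates had 6686, 3480 and 7273 CPM of mt-Cytb, and in Bmal1 WT 5495, 7878 and 6951. All but 1 of these exceeded every replicate of the immune classes, among which the highest was 3874, whereas fibroblasts reached 4568. mt-Co1, the catalytic core of cytochrome c oxidase, went the other way, with 8224 ± 1925 CPM in melanoma-gated cells and 12420 ± 1343 in T cells. It was called 0.47 higher on the log2 scale in T cells (edgeR adjusted p = 2.739e-05) and 0.24 lower in melanoma-gated cells (adjusted p = 0.021). In melanoma-gated cells 0 mitochondrial members were called lower without h1, h7, h8 or h5, or without barcodes under 1% mitochondrial UMIs, so that call was lost in each. As a share of mitochondrial UMIs, mt-Cytb made up 12.7% ± 2.18 in melanoma-gated cells and 11.2% ± 2.10 in fibroblasts, compared with 6.08% to 7.05% in the 4 immune classes. mt-Co1 showed the reverse, with 16.7% ± 1.76 and 18.8% ± 1.57 against 24.5% to 25.3%.

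The remaining mitochondrial subunits of complex I followed similar lines. mt-Nd3 was 0.99 higher in melanoma-gated cells, and all 6 complex I calls in that class were upward. mt-Nd5, a proton-pumping subunit, was higher in NK cells by 0.58 (SE 0.10, adjusted p = 7.556e-06) and lower in fibroblasts by 0.70, at 783 ± 62.4 against 380 ± 104 CPM. mt-Atp8, of ATP synthase, was 0.58 higher in NK cells and 0.47 higher in T cells, but 0.82 lower in fibroblasts, where it rested on 178 UMIs. mt-Nd6, coded on the opposite strand from the other members, was 0.69 lower in macrophages or monocytes, at 53.2 ± 17.2 CPM. Levels of different mitochondrial genes also depend on how well each RNA is captured, which was not tested.

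The nuclear members made up 1.95% ± 0.147 of non-mitochondrial UMIs in melanoma-gated cells (SD, n = 6). They were 1.81% ± 0.121 in dendritic cells, 1.70% ± 0.196 in T cells, 1.68% ± 0.254 in macrophages or monocytes, 1.65% ± 0.159 in fibroblasts and 1.57% ± 0.143 in NK cells. Melanoma-gated cells lay above dendritic cells in 6 of 6 replicates (exact sign-flip permutation p = 0.0312, adjusted 0.156), and the next 4 neighbours had unadjusted p from 0.0938 to 0.781. When each cell counted equally instead of each UMI, melanoma-gated cells had 1.79% and dendritic cells 1.79% (difference -0.006324 percentage points, exact permutation p = 0.938). The order of the nuclear and mitochondrial shares differed, since dendritic cells lay above NK cells by the nuclear share and below them by the mitochondrial share.

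**Figure D2:**
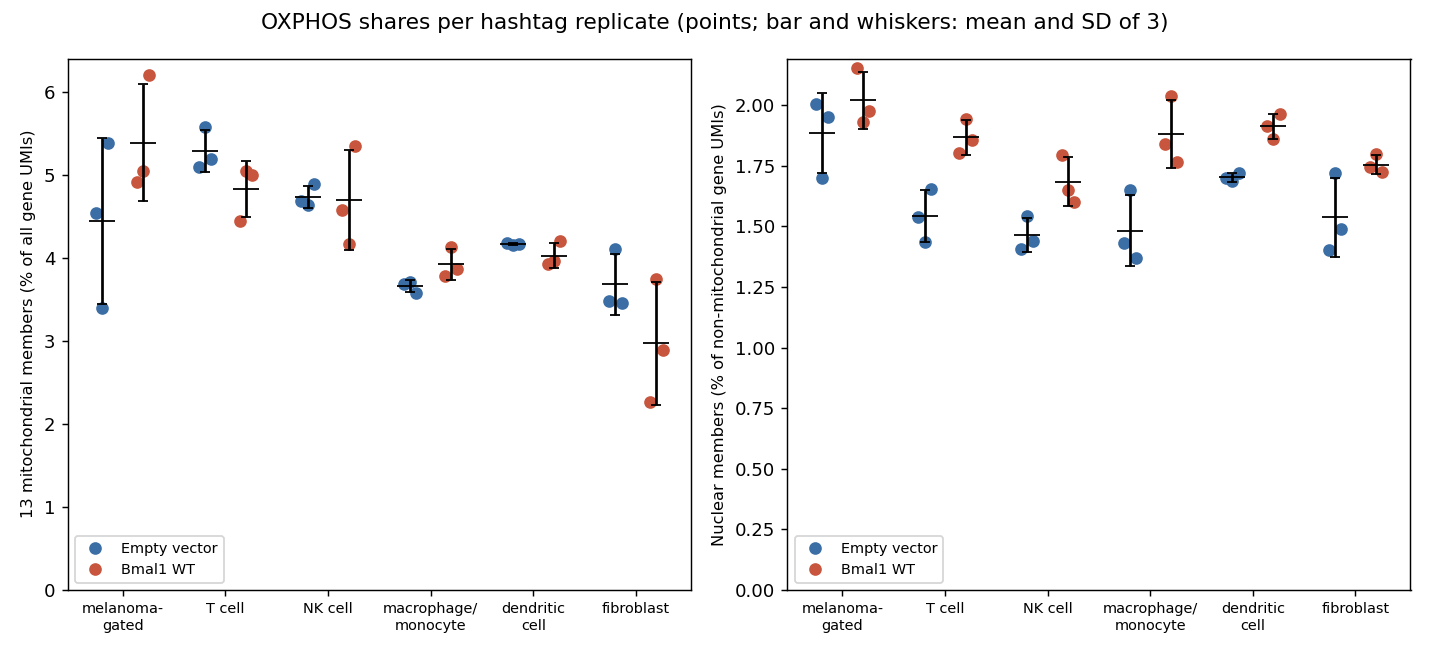
Share of UMIs from the 13 mitochondrial members (left, % of all gene UMIs) and from nuclear members (right, % of non-mitochondrial gene UMIs) in 6 marker-gated classes. Points are hashtag replicates of Empty vector (blue) and Bmal1 WT (red), with the mean and SD of 3. On the right the Bmal1 WT points lie above all Empty vector points in every class but the melanoma-gated one, in fibroblasts only just (1.7203% against 1.72333%), while on the left the groups overlap in 4 of 6 classes.

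Of 88 nuclear members that reached 100 UMIs, 41 were called higher and 15 lower in melanoma-gated cells than in the mean of the other classes, against the 39.1% and 22.9% of all genes given above. For complex I subunits, 23 of 36 were higher and 4 lower. The largest upward differences among subunits expressed in every class were those of Ndufa12 (1.36 on the log2 scale, SE 0.14), Uqcr11 (1.16, SE 0.10) and Ndufa5 (1.10, SE 0.14). Ndufa12, an accessory subunit near the NADH-binding arm of complex I, had 197, 96.7 and 185 CPM in the Empty vector replicates and 173, 187 and 147 in Bmal1 WT. No replicate of the immune classes exceeded 105, and of the melanoma-gated replicates only h7, which held 8 cells, was below that. Fibroblasts reached 224. Uqcr11, a small subunit of complex III, had 474 ± 68.7 CPM in melanoma-gated cells against 161 ± 26.6 in NK cells. Uqcrfs1, the Rieske iron-sulfur subunit of the same complex, was lower by 0.54 (SE 0.10), and Ndufb7 by 0.54 (SE 0.10), so that subunits of 1 complex differed in direction.

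With total UMIs NK cells had the most nuclear members called lower, 36 of 88 with 8 higher, where 24.8% of all genes were called lower. Under TMM they had 31 lower and 8 higher, where 24.3% and 29.3% of all genes were, and fibroblasts had 35 lower. Among those lower with total UMIs were Atp5g1, which codes for the ring subunit c of ATP synthase and was lower by 0.88 (SE 0.14), Ndufa12 by 0.87, Uqcrq by 0.81 and Ndufb8 by 0.80. Atp5g1 was measured at 106 ± 28.6 CPM in NK cells and at 247 ± 53.3 in melanoma-gated cells. In T cells 12 members were higher and 11 lower, where 35.4% and 17.2% of all genes were called. Ndufaf5, a complex I assembly factor, was 0.89 higher there and Ndufb7 0.57. Uqcrb was 0.47, Ndufa7 0.45, Ndufb4 0.36 and Ndufc1 0.34 lower. Dendritic cells had 17 higher and 6 lower, where 22.2% and 27.4% of all genes were called. Cox7a2l, which joins complexes III and IV in supercomplexes, was 0.69 higher there (SE 0.09, adjusted p = 1.513e-07), at 448 ± 22.3 CPM against 263 to 298 in the other 5 classes, and its dendritic cell replicates, from 412 to 471, lay above all other replicates. Cox8a was 0.46 and Ndufa6 0.37 higher in dendritic cells, and Ndufaf4 was 0.72, Ndufs1 0.64, Ndufa12 0.46 and Sdhc 0.46 lower.

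Macrophages or monocytes had 11 nuclear members higher and 22 lower, where 22.2% and 41.1% of all genes were called. Fibroblasts had 21 and 16, where 31.3% and 19.1% were called, but both splits turned with the scaling. Under TMM they were 47 higher and 3 lower, and 7 higher and 35 lower. Dendritic cells went to 34 and 4, T cells to 9 and 19 and melanoma-gated cells to 28 and 24, where the TMM shares over all genes are those given above. With total UMIs, in macrophages or monocytes Uqcrfs1 was 0.47 higher, Cox6a1 0.42 and Cox7b 0.32, whereas Atp5s was 1.85, the assembly factor Ndufaf1 1.23 and Ndufaf2 0.88 lower. In fibroblasts Ndufaf4 was 1.05 higher and Ndufb7 0.68 lower. Across the classes the ratio of the highest to the lowest class mean had a median of 1.63 for nuclear members and 1.73 for mitochondrial members, and it exceeded 2 for 26 of 86 nuclear and 4 of 13 mitochondrial members.

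Subunit isoforms of limited tissue range were sparse and unevenly spread. Cox4i2, an alternative form of the regulatory subunit Cox4 known from lung and oxygen-sensing cells, was found in macrophages or monocytes and in fibroblasts. In macrophages or monocytes its replicates had 17.8, 1.31 and 7.92 CPM in Empty vector against 15.1, 3.36 and 12.3 in Bmal1 WT, 115 UMIs in all. In fibroblasts 28 UMIs were counted, with 0 in 2 of 6 replicates. Melanoma-gated cells with 1 hashtag had 0 Cox4i2 UMIs and the other classes between 1 and 4. The gene passed the minimum of 100 UMIs only through macrophages or monocytes, so its calls between classes are not reported. Cox6b2, known from testis, had 0 UMIs in melanoma-gated barcodes with 1 hashtag, and 39 in fibroblasts, 44 in dendritic cells and 57 in macrophages or monocytes. No fold is given against a mean that includes a class at 0.

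Cox6a2, the form of subunit 6a found in heart and skeletal muscle, was highest in dendritic cells and called 3.12 higher (SE 0.46, adjusted p = 1.056e-06). The 3 Empty vector replicates had 83.4, 91.2 and 36.7 CPM in these cells and the Bmal1 WT replicates 28.4, 25.7 and 1.66, so the groups did not overlap. The log2 fold change of -1.77 (SE 0.52) had an unadjusted p of 0.00782 and an adjusted p of 0.151 in edgeR. Cox6a2 was also called higher in NK cells (1.94, SE 0.50). Its values in NK cells and T cells ranged widely between replicates, from 2.47 to 37.7 and from 0 to 35.6 CPM. Cox7a1, the muscle form of subunit 7a, had 106 of its 201 UMIs in melanoma-gated cells, with replicates from 4.80 to 17.6 CPM, and passed the minimum only with them. It had 21 UMIs in fibroblasts and 14 and 9 in T cells and NK cells. Ndufa4, first assigned to complex I and now placed in complex IV, was 0.80 higher in NK cells (SE 0.15) and 0.60 higher in T cells (SE 0.15). Its levels were 326 ± 46.1 and 294 ± 55.1 CPM against 162 ± 22.6 in melanoma-gated cells.

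**Figure D3:**
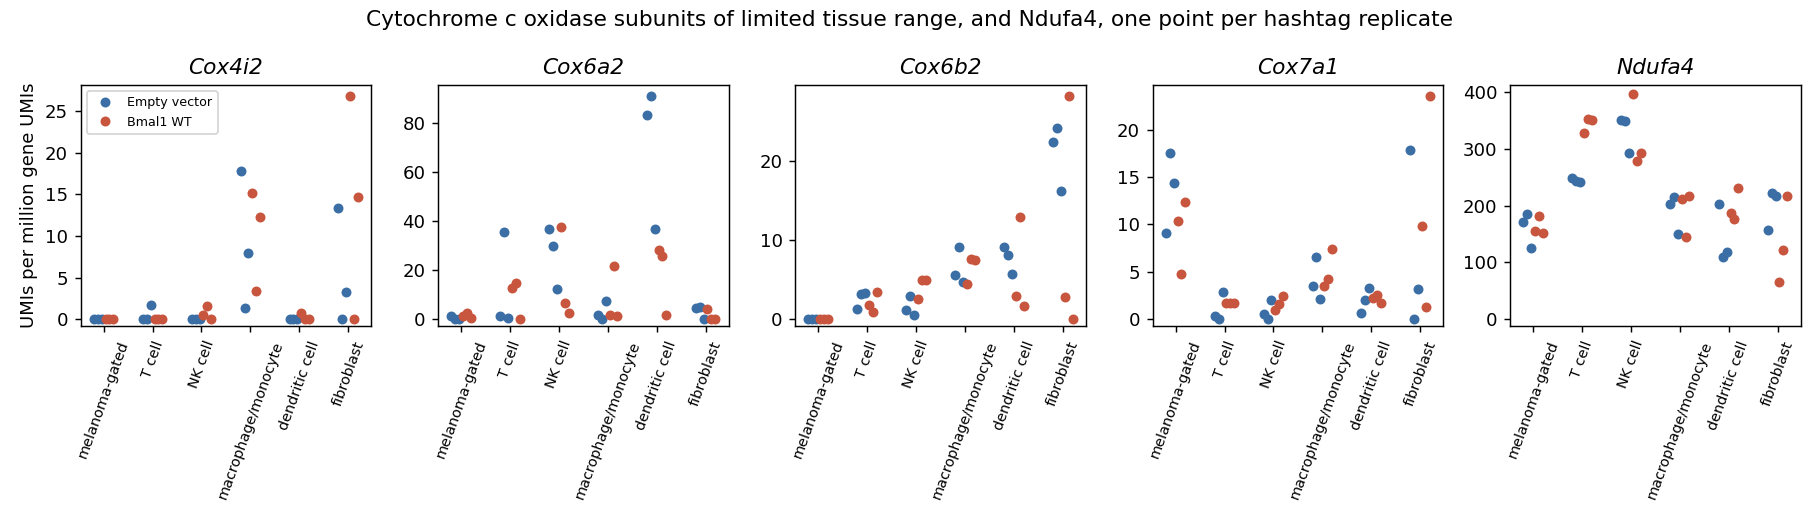
CPM of Cox4i2, Cox6a2, Cox6b2, Cox7a1 and Ndufa4 in 6 marker-gated classes, with 1 point per hashtag replicate of Empty vector (blue) and Bmal1 WT (red) and a linear axis per gene. Cox4i2 rises above 2 CPM only in macrophages or monocytes and fibroblasts, and the dendritic cell points of Cox6a2 range from 1.66 to 91.2.

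The main comparison asked whether oxidative phosphorylation genes differed between the libraries labelled Bmal1 WT and Empty vector. The mean share of nuclear members was larger in Bmal1 WT than in Empty vector in all 6 classes, and in 5 of them the replicates did not overlap, though in fibroblasts this rested on a narrow gap. In T cells the Empty vector replicates had 1.54%, 1.44% and 1.65% and the Bmal1 WT replicates 1.80%, 1.94% and 1.86%. Macrophages or monocytes went from 1.43%, 1.65% and 1.37% to 1.84%, 2.04% and 1.77%. In NK cells the values were 1.41%, 1.54% and 1.44% against 1.80%, 1.65% and 1.60%. In these 3 classes every Bmal1 WT replicate exceeded every Empty vector replicate. Dendritic cells had a mean of 1.70% ± 0.0176 against 1.91% ± 0.0515, without overlap. Fibroblasts had 1.54% ± 0.163 against 1.76% ± 0.0381, where the highest Empty vector replicate, 1.7203%, lay just under the lowest of Bmal1 WT, 1.72333%. The fibroblast replicates overlapped with a gate of 3 markers (difference 0.127 percentage points, exact permutation p = 0.5), without the upper mitochondrial limit (0.218, p = 0.2), with the other hashtag assignment (0.158, p = 0.2) and with ribosomal protein genes out of the total (0.400, p = 0.2). Melanoma-gated cells had 2.01%, 1.70% and 1.95% against 2.15%, 1.93% and 1.98%, which overlapped. In bulk sums of this kind, a shift in a share cannot be told apart from a change in the remaining RNA. The exact permutation test gave p = 0.1 in the 5 classes without overlap, the smallest that 3 against 3 allows (adjusted 0.12), and p = 0.5 in melanoma-gated cells.

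The shift in melanoma-gated cells was not shown to differ from that in other classes. The effect in T cells exceeded it by 0.18 on the log2 scale (exact permutation p = 0.3), and that in macrophages or monocytes by 0.24 (p = 0.3). Other measures moved with the group. Cytosolic ribosomal protein genes also took a larger share in Bmal1 WT, with 22.8% ± 1.74 against 18.8% ± 0.543 of non-mitochondrial UMIs in T cells and 15.7% ± 0.158 against 12.5% ± 0.936 in macrophages or monocytes. With these genes taken out of the total, the nuclear share was 1.90% in Empty vector and 2.42% in the other group in T cells, and 1.70% and 2.23% in macrophages or monocytes. The alternatives in this paragraph were chosen after seeing the data. UMIs per barcode also differed, and among barcodes with 4000 to 8000 UMIs the T cell shares were 1.36% and 1.58% and the NK cell shares 1.39% and 1.55%, each without overlap between replicates. In macrophages or monocytes the difference at matched depth fell from 0.399 to 0.115 percentage points, with overlap (exact permutation p = 0.6). In dendritic cells it was 0.599 percentage points, without overlap. The part of depth and of ribosomal protein genes in the shift was not tested further.

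**Figure D4:**
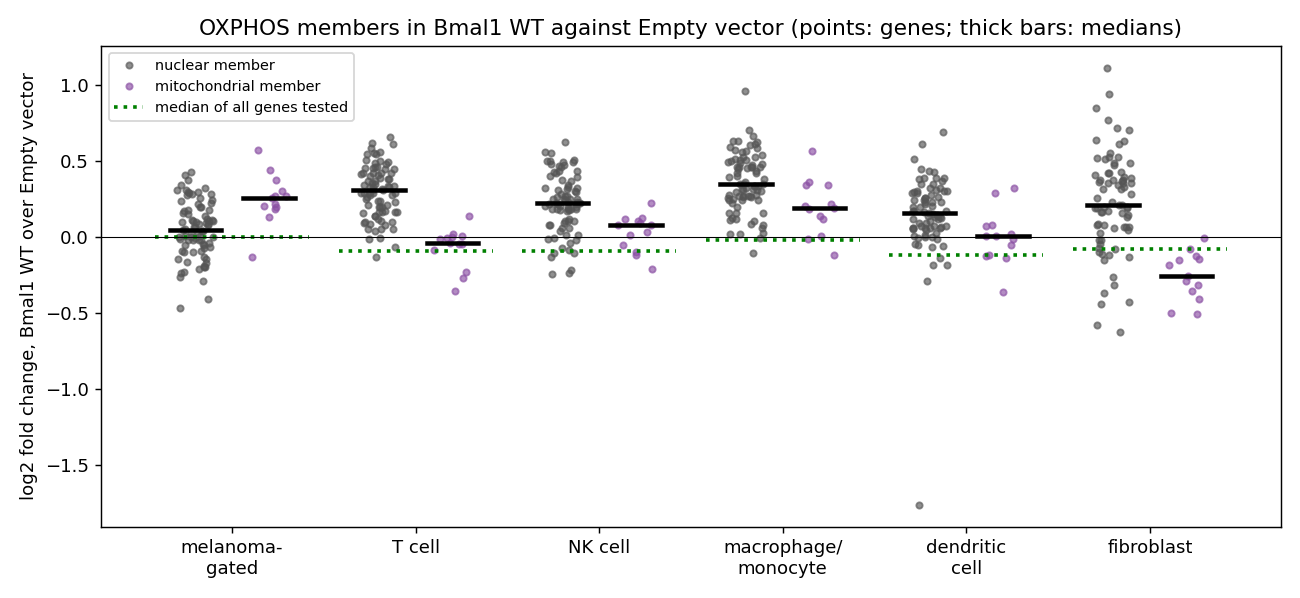
Log2 fold change of each member, Bmal1 WT over Empty vector, in 6 marker-gated classes, from edgeR on summed UMIs of 3 replicates per group. Grey points are nuclear and purple points mitochondrial members, thick bars their medians, and dotted lines the median of all genes tested. Nuclear medians lie between 0.04 and 0.34, above the dotted line in every class, and mitochondrial medians run from 0.26 in melanoma-gated cells to -0.26 in fibroblasts.

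Gene by gene, edgeR called 0 of the members at an adjusted p of 0.05 in any class. The background was also near 0, with 0.0% of genes called in melanoma-gated cells, T cells, macrophages or monocytes and fibroblasts, 0.109% in NK cells and 0.0303% in dendritic cells. Direction and unadjusted p were therefore tabulated. In T cells 78 of 82 nuclear members tested were higher in Bmal1 WT, with a median log2 fold change of 0.31 where the median of all genes was -0.10, and 38 were higher at an unadjusted p under 0.05, 46.3% against 8.37% of all genes. Macrophages or monocytes had 79 of 81 higher (median 0.34, all genes -0.02) and 39 at unadjusted p under 0.05, 48.1% against 6.54%. In NK cells 69 of 81 were higher (median 0.22) with 22 at that level, 27.2% against 4.31%. In dendritic cells 66 of 79 were higher (median 0.15) with 15, 19.0% against 4.29%, and 1 lower. Fibroblasts had 60 of 77 higher (median 0.21) but 3 at that level, 3.90% against 4.12%. Melanoma-gated cells had 48 of 82 higher (median 0.04) and 0 at that level, against 1.3%. Members share cells and totals, so these counts describe the libraries and are not independent tests. DESeq2 called 16 nuclear members in T cells, 11 in NK cells, 7 in macrophages or monocytes and 2 in dendritic cells, all higher, where 3.06%, 1.36%, 1.12% and 1.8% of all genes were called in either direction. It called none in melanoma-gated cells and fibroblasts, against 0.0692% and 0.592%.

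The direction was shared by the complexes in some classes. In T cells 36 of 36 complex I subunits, 11 of 11 of complex IV and 15 of 15 of ATP synthase were higher in Bmal1 WT, with medians of 0.33, 0.33 and 0.34. For complexes II and III they were 3 of 4 and 7 of 8. In macrophages or monocytes 36 of 36 complex I subunits were higher (median 0.41), 8 of 8 of complex III and 15 of 15 of ATP synthase. Dendritic cells differed in complex III, where 3 of 8 were higher, with a median of 0.00. The members with the lowest p in T cells were Ndufa4, Atp5h and Ndufb9. Ndufa4 had 248, 243 and 242 CPM in Empty vector against 328, 352 and 350 in Bmal1 WT, a log2 fold change of 0.49 (SE 0.10, adjusted p = 0.0897). The groups did not overlap. In NK cells Ndufa4 had 351, 348 and 292 against 396, 278 and 292, which overlapped (log2 fold change -0.01, SE 0.15).

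Atp5h, a stalk subunit of ATP synthase, had a log2 fold change of 0.45 in T cells (SE 0.09, edgeR adjusted p = 0.0897), in NK cells of 0.46 (SE 0.12, adjusted p = 0.129) and in dendritic cells of 0.38 (SE 0.11, adjusted p = 0.143). Its NK cell replicates had 318, 345 and 343 CPM in Empty vector against 455, 444 and 492 in Bmal1 WT. Atp5e, the epsilon subunit, had an NK cell log2 fold change of 0.49 (SE 0.12). Cox5b, a zinc-binding subunit of complex IV, had the lowest p in NK cells (log2 fold change 0.62, SE 0.14, adjusted p = 0.0762). In NK cells its values were 136, 169 and 150 against 243, 240 and 213 CPM, and in fibroblasts 147, 164 and 159 against 350, 242 and 206. In melanoma-gated cells it had 251, 220 and 231 against 250, 241 and 210, which overlapped fully.

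In macrophages or monocytes the 3 lowest p values were those of the complex I genes Ndufb9 (0.60, SE 0.13), Ndufb8 (0.63, SE 0.14) and Ndufv3 (0.59, SE 0.14), each with an adjusted p of 0.214. Ndufb9 had 152, 156 and 152 CPM in Empty vector against 216, 226 and 257 in Bmal1 WT. Uqcrb, a subunit of complex III, had the lowest p in dendritic cells, at 130, 139 and 141 against 221, 200 and 243 (0.69, SE 0.14, adjusted p = 0.0670). In fibroblasts Ndufa12 went from 62.5, 86.7 and 87.5 to 224, 150 and 138 (1.11, SE 0.32) and Ndufv2 had 0.85 (SE 0.35), both with an adjusted p of 0.505. In melanoma-gated cells mt-Co2, mt-Atp8 and Atp5g2 had the lowest unadjusted p, from 0.0732 to 0.115, with adjusted p of 0.9999. Among the nuclear members with the most UMIs, Cox8a, Cox4i1 and Atp5e had log2 fold changes of 0.35, 0.26 and 0.38 in T cells, and Cox7c and Atp5l 0.17 and 0.16.

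The mitochondrial members gave no common direction. In T cells their share was 5.10%, 5.58% and 5.20% in Empty vector against 4.45%, 5.05% and 5.01% in Bmal1 WT, lower without overlap. In macrophages or monocytes it was 3.69%, 3.71% and 3.58% against 3.78%, 4.14% and 3.86%, higher without overlap. Among macrophage or monocyte barcodes of 4000 to 8000 UMIs the means were 4.26% and 4.07%, the other way round and with overlap (exact permutation p = 0.4). Over all barcodes both classes had an exact permutation p of 0.1 (adjusted 0.3), the smallest possible, and the other 4 classes overlapped, with p from 0.3 to 0.8. Without the upper limit of 20% the T cell means were 5.37% and 5.47%, so the direction in T cells depended on that filter, and that in macrophages or monocytes on the range of UMIs. Of 13 genes, 3 were higher in T cells, 9 in NK cells, 11 in macrophages or monocytes, 7 in dendritic cells, 12 in melanoma-gated cells and 0 in fibroblasts. Unadjusted p values were under 0.05 for 3 in T cells (23.1%, against 21.0% of all genes), 5 in macrophages or monocytes (38.5% against 14.1%), 2 in dendritic cells (15.4% against 16.3%) and 0 in the other classes, so that the T cell and dendritic cell counts were near the background. Under TMM the number higher was 9 in T cells, 10 in NK cells, 12 in macrophages or monocytes, 9 in dendritic cells, 12 in melanoma-gated cells and 2 in fibroblasts. The ratio of mitochondrial to nuclear member UMIs was lower in Bmal1 WT in T cells (2.72 ± 0.130 against 3.64 ± 0.419), macrophages or monocytes (2.18 ± 0.0853 against 2.57 ± 0.205), dendritic cells (2.19 ± 0.0499 against 2.56 ± 0.0273) and fibroblasts (1.74 ± 0.420 against 2.49 ± 0.0820), each with an exact permutation p of 0.1 (adjusted 0.15). It overlapped in NK cells (2.95 against 3.41, exact permutation p = 0.3) and was higher in melanoma-gated cells (2.84 against 2.45, p = 0.4), with overlap.

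Within the mitochondrial UMIs the composition shifted in the same direction in several classes. mt-Co2 took a larger share in Bmal1 WT in 6 of 6 classes, each without overlap (exact permutation p = 0.1), for example 14.3% ± 0.0926 against 12.9% ± 0.254 in T cells and 15.3% ± 0.579 against 14.3% ± 0.350 in melanoma-gated cells. mt-Atp6, mt-Atp8 and mt-Nd2 were higher in 6 of 6 classes, without overlap in 3, 2 and 1. mt-Co1, mt-Co3 and mt-Nd3 were lower in 6 of 6, without overlap in 3, 4 and 2 classes. The other genes were mixed: mt-Nd4l, mt-Nd5 and mt-Nd6 were higher in 5 of 6, without overlap in 2, 2 and 0. mt-Nd1 and mt-Nd4 were higher in 4 of 6 and mt-Cytb in 3, and mt-Nd4 had 1 class without overlap in each direction. With 3 against 3 a lack of overlap has an exact permutation p of 0.1, so it carries little weight in 1 or 2 classes. In T cells mt-Co1 had 13140, 14120 and 13530 CPM in Empty vector against 10820, 11500 and 11430 in Bmal1 WT, a log2 fold change of -0.27 (SE 0.07, edgeR adjusted p = 0.0936). These shares add up to 100% within a replicate, so that a rise in one lowers the rest, and all classes of a group shared 1 library.

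Genes around the pathway gave no calls between the groups in edgeR. Of the respiratory assembly factors and carriers (such as Cycs, Sco1 and the adenine nucleotide carriers) 14 of 17 tested were higher in Bmal1 WT in macrophages or monocytes, with a median of 0.21, and 12 of 22 in T cells, with a median of 0.19. Genes of mitochondrial genome expression (Tfam, Polrmt, Twnk and others) had 5 of 10 higher in T cells and 4 of 9 in macrophages or monocytes, with medians of 0.00 and -0.05. Of the regulators, among them Nrf1, Gabpa, Esrra and Ppargc1b, 1 of 9 was higher in T cells (median -0.27) and 3 of 9 in macrophages or monocytes. Citrate cycle enzymes had 9 of 16 higher in T cells (median 0.10) and 11 of 16 in macrophages or monocytes (median 0.16). Of all genes tested, 38.9% were higher in Bmal1 WT in T cells and 47.4% in macrophages or monocytes. Between 0 and 4 genes per list and class had an unadjusted edgeR p under 0.05, the most being 4 of 22 assembly factors and carriers in T cells. Over all genes that share ran from 3.07% in melanoma-gated cells to 21.0% in T cells, so these counts are not read as a result about the lists. Between classes, 13 of 26 assembly factors and carriers were called higher in melanoma-gated cells and 3 lower, where 39.1% and 22.9% of all genes were called. Of genes of mitochondrial genome expression, 7 of 18 were higher (38.9%, near that background) and 0 lower. In macrophages or monocytes the assembly list had 2 higher and 13 lower (22.2% and 41.1% of all genes), and the expression list 1 higher and 8 lower (44.4%).

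A second question concerned barcodes in which mitochondrial members were nearly absent, defined by under 1% mitochondrial UMIs. They made up 405 of 2386 kept barcodes in Bmal1 WT (17.0%, exact binomial 95% interval 15.5 to 18.5) and 175 of 3978 in Empty vector (4.40%, 3.78 to 5.08), where the intervals cover counting error only. Among barcodes with 1 hashtag the share was 1.92%, 1.87% and 1.96% in the Empty vector replicates and 6.12%, 9.09% and 8.28% in the Bmal1 WT replicates. The replicates did not overlap, with means of 1.92% ± 0.0461 and 7.83% ± 1.53 (exact permutation p = 0.1, the smallest possible). Of these barcodes 70 of 175 and 171 of 405 had 0 mitochondrial UMIs. The median depth of those was 1468 and 1888 UMIs, at which a count of 0 allows a mitochondrial share of up to 0.204% and 0.159%. Just inside the threshold, 32 Empty vector and 54 Bmal1 WT barcodes had 0.5% to 1%, and just outside it, 75 and 67 had 1% to 1.5%.

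**Figure D5:**
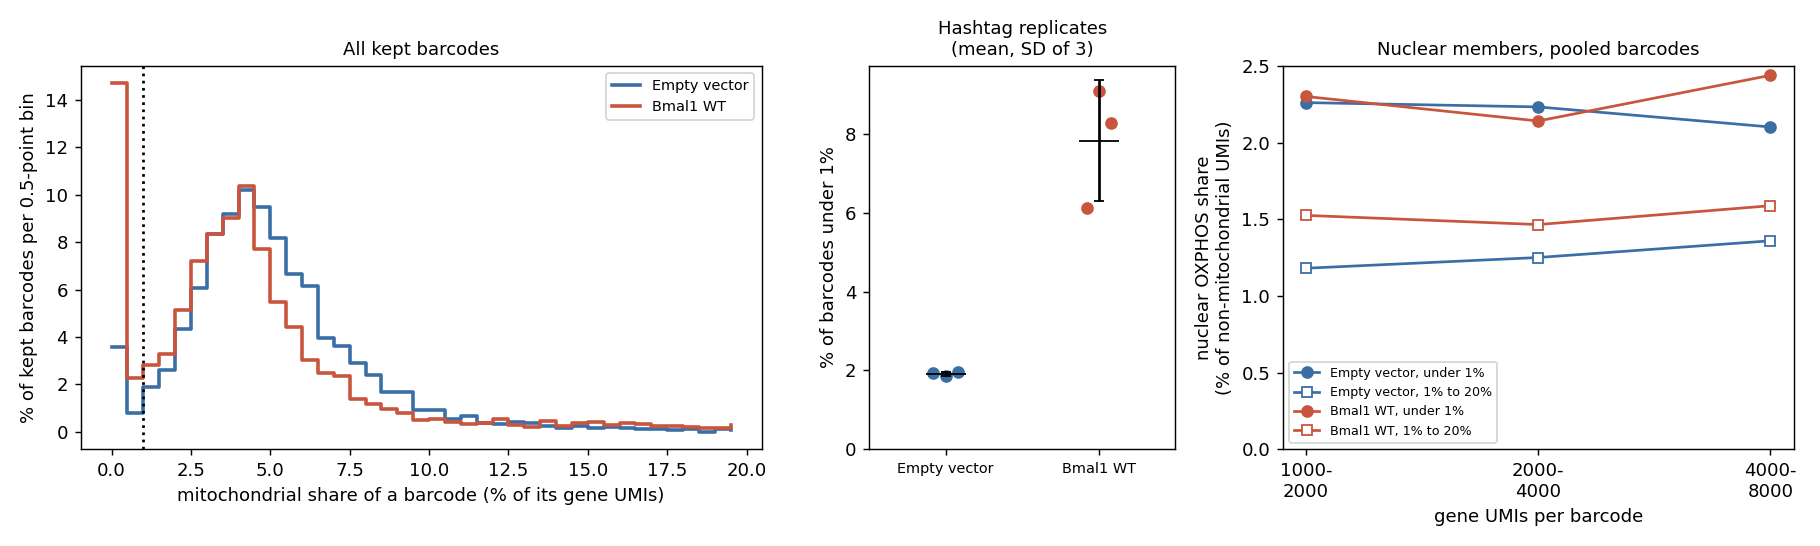
Left, distribution of the mitochondrial share per kept barcode in bins of 0.5 percentage points, with a dotted line at 1%. Middle, percent of barcodes under 1% in each hashtag replicate with the mean and SD of 3, where Bmal1 WT (red) lies between 6.12% and 9.09% and Empty vector (blue) below 2%. Right, nuclear OXPHOS share of pooled barcodes under 1% (filled) and from 1% to 20% (open) in 3 windows of UMIs per barcode, with the filled points above 2% in both libraries.

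These barcodes were unevenly spread over the classes. In melanoma-gated cells they made up 37.9% in Empty vector (58 of 153, interval 30.2 to 46.1) and 33.2% in Bmal1 WT (125 of 377, 28.4 to 38.2), which overlapped. In T cells they were 0.260% and 1.32%, in NK cells 0.359% and 0.245%, in macrophages or monocytes 1.31% and 4.33%, in dendritic cells 7.49% and 16.9% and in fibroblasts 8.03% and 14.3%. Among barcodes with no class they were 16.4% and 49.3%. The Bmal1 WT library also held more melanoma-gated barcodes and more mitochondria-poor barcodes outside the gates, and their part in its larger share was not tested. Hashtags were also missing more often: 62.9% and 68.1% of mitochondria-poor barcodes had none, against 7.31% and 19.4% of the others. Among barcodes with no hashtag, 28.4% (interval 23.9 to 33.1) for Empty vector and 41.8% (38.0 to 45.7) for Bmal1 WT were mitochondria-poor. Their median depth was 2480 and 2413 UMIs against 5251 and 8751.

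The nuclear members were present in mitochondria-poor barcodes at a larger share of UMIs than elsewhere. Over all such barcodes they made up 1.83% of non-mitochondrial UMIs for Empty vector and 2.13% for Bmal1 WT, against 1.58% and 1.84% in the others. At matched depth the gap was wider. Among barcodes with 1000 to 2000 UMIs the shares were 2.26% against 1.18% for Empty vector and 2.30% against 1.53% for Bmal1 WT. With 4000 to 8000 UMIs they were 2.10% against 1.36% and 2.44% against 1.59%. The classes differed at matched depth: in that window 59.1% of mitochondria-poor and 0.615% of other Empty vector barcodes were melanoma-gated. For Bmal1 WT these were 42.6% and 2.88%, and the part of class in the gap was not tested. In the 70 and 171 barcodes without any mitochondrial UMI the nuclear members reached 2.31% and 2.66%. Ribosomal protein genes were higher as well, at 19.4% against 16.4% and 25.4% against 19.3%. The nuclear-retained RNA Malat1 had 2082 CPM in mitochondria-poor Bmal1 WT barcodes without a class, against 24807 in other barcodes without a class, whereas in Empty vector it had 16177 against 12646. These are pooled barcodes of 1 library each, and whether they are whole cells was not tested.

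Within the melanoma-gated class the nuclear share of mitochondria-poor and other barcodes was 1.95% and 1.95% for Empty vector, whereas it was 2.23% and 1.93% for Bmal1 WT, at median depths of 3750.5 and 28470, and 4827 and 41473 UMIs. In Bmal1 WT 62 of 83 nuclear members were higher in mitochondria-poor barcodes, with a median log2 ratio of 0.15, where 41.8% of 9123 genes were higher and the median of all was -0.11. In Empty vector 37 of 79 were higher, with a median of -0.01, against 45.9% of 6947 genes. Of the 58 and 125 mitochondria-poor barcodes 87.9% and 88.0% had no hashtag, so that few were left with 1. In the pool of these few, 18 of 79 members were higher in Empty vector (median -0.52) and 9 of 79 in Bmal1 WT (median -0.44). The medians of all genes were also below 0, at -0.19 and -0.23, and only genes with UMIs on both sides entered. Since only 3 replicates had at least 3 barcodes on both sides, no model was fitted. The direction differed between all barcodes and the few with a hashtag in Bmal1 WT. At the other end, barcodes above 20% mitochondrial UMIs, which the filter removed, had nuclear shares of 0.862% for Empty vector and 0.911% for Bmal1 WT.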

How the data were processed

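The deposited matrices hold UMI counts per gene and barcode, made by the authors with Cell Ranger 6.1.2, with mm10 as the build per the labels. They also hold antibody counts for the hashtags. Barcodes with at least 200 genes and at most 20% mitochondrial UMIs were kept. Hashtags were assigned by a mixture of 2 Gaussians on log counts, barcodes with several hashtags were left out of replicates as doublets, and no other doublet caller was run. Classes were gated by at least 2 markers and more than of any other class. UMIs were summed per class and replicate, scaled by total UMIs and tested for genes with at least 100 UMIs in edgeR 4.0.16 (quasi-likelihood, R 4.3.3) with Benjamini-Hochberg adjustment at 0.05, after a test on simulated data. Shares were compared by exact permutation tests. DESeq2 1.42.0, TMM, other filters and leaving out replicates were alternatives, and the depth window of 4000 to 8000 UMIs and the total without ribosomal protein genes were added after seeing the data.

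Genes were named by rule: all mitochondrial members, per class the 3 members with the lowest p between groups where none was called, the 5 called members with the largest difference between classes in each direction, isoforms of limited tissue range, and the 5 nuclear members with the most UMIs. Members and lists were chosen with earlier results of these data known. A fit of mitochondria-poor against other melanoma-gated barcodes was planned for at least 4 replicates with 3 barcodes on both sides. Too few had them, so values are given without a test.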

Additional observations from a re-analysis of the deposited data

Results flagged for a closer look

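The mitochondrial share differed in direction between macrophages or monocytes and T cells over all kept barcodes. The difference of the log2 effects of Bmal1 WT against Empty vector was 0.2339 (exact permutation p = 0.1, the smallest that 3 against 3 allows), and without the upper limit on the mitochondrial share the T cell means were 5.37% and 5.47%. In barcodes of 4000 to 8000 UMIs both classes were lower in Bmal1 WT, with differences of -0.186 percentage points in macrophages or monocytes and -0.846 in T cells, each with overlap between replicates.

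Among Bmal1 WT barcodes without a hashtag, which enter no replicate, 41.82% had under 1% mitochondrial UMIs, against 28.4% in Empty vector. Of Bmal1 WT barcodes with at least 200 genes, 9.655% lay over the upper limit of 20% mitochondrial UMIs and entered no comparison, against 2.69% in Empty vector. Group and library cannot be told apart in either value.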

How the results depend on the processing

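No paired analysis was possible because the hashtag numbers are not shared between the groups. Of 276 values recomputed under alternatives other than leaving out a replicate, 227 were counted as unchanged, 45 as moved and 4 as reversed. Of 258 with a replicate left out, 245 were counted as unchanged and 13 as moved. For shares, unchanged meant a change smaller than the SD between replicates, whatever the sign. Only the order of classes was checked for reversal. The NK cell mitochondrial difference, for example, was -0.0388 percentage points with all replicates and 0.227 without h5, and counted as unchanged. The cause of these changes was not tested.

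Without the upper mitochondrial limit the difference in mitochondrial share, Bmal1 WT minus Empty vector, was 0.101 percentage points in T cells, 0.814 in NK cells and 0.455 in macrophages or monocytes. In cells of 4000 to 8000 UMIs it was -0.846 in T cells, -0.186 in macrophages or monocytes and -1.23 in dendritic cells, and with hashtags taken by the highest centred log count 0.0748 in melanoma-gated cells. The nuclear difference in the depth window was 0.218 in T cells, 0.115 in macrophages or monocytes and 0.599 in dendritic cells, few of whose UMIs lay in that window. With ribosomal protein genes out of the total it was 0.522 in T cells, 0.379 in NK cells, 0.338 in dendritic cells and 0.400 in fibroblasts. The difference in mitochondria-poor barcodes was 4.80 percentage points at a threshold of 0.5%, 7.01 at 2% and 13.05 with the other hashtag assignment.

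Members called between the groups, 0 in edgeR, were 13 in T cells, 5 in NK cells, 2 in macrophages or monocytes and 2 in dendritic cells with no filter on low genes (4.36%, 1.21%, 1.45% and 3.72% of all genes; 12.9%, 4.95%, 1.98% and 1.98% of members), 16, 11, 7 and 2 in DESeq2, and 1 in NK cells in the depth window. Leaving out Empty vector h7 gave 2 in NK cells, where 81 of 6780 genes were called. In the depth window 8 of 4379 genes were called in NK cells. Under TMM, between classes, the nuclear calls were 24 lower in melanoma-gated and 19 lower in T cells, 47 higher and 3 lower in macrophages or monocytes, 34 higher in dendritic cells and 7 higher and 35 lower in fibroblasts. Mitochondrial calls were 4 higher in melanoma-gated and 6 in T cells, 2 higher and 2 lower in macrophages or monocytes, and 1 higher and 2 lower in dendritic cells. Without a low-gene filter macrophages or monocytes had 7 nuclear members higher, where 14.2% of all genes were called higher. Without barcodes under 1%, 0 mitochondrial members were lower in melanoma-gated cells and 1 was higher in fibroblasts. Of 11883 genes 2652 and 3596 were called in those directions.

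With each replicate left out in turn, members called between the groups in NK cells ranged from 0 to 2. Between classes, nuclear members lower in T cells ranged from 4 to 15 (4 without h7), nuclear members higher in NK cells from 5 to 8 (5 without h8), nuclear members in macrophages or monocytes from 5 to 11 higher (7 without h1, 6 without h3, 5 without h5) and from 11 to 21 lower (12 without h1, 11 without h8), nuclear members lower in fibroblasts from 10 to 17 (10 without h3), and mitochondrial members lower in melanoma-gated cells from 0 to 1 (0 without h1, h7, h8 or h5). Over all genes 1884 of 11760 were lower in T cells without h7 and 2864 of 11561 higher in NK cells without h8. In fibroblasts 1912 of 11603 were lower without h3. In macrophages or monocytes 2452 of 11514, 2467 of 11603 and 2496 of 11558 were higher without h1, h3 and h5. There 4015 of 11514 and 4096 of 11561 were lower without h1 and h8. The difference in mitochondria-poor barcodes ranged from 5.29 to 6.77 percentage points, and the nuclear difference in melanoma-gated cells from 0.0400 (without h7) to 0.193.

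With each cell counted equally, dendritic cells minus macrophages or monocytes (-0.2937) and macrophages or monocytes minus fibroblasts (-0.02897) reversed in mitochondrial share, and melanoma-gated minus dendritic cells (-0.006324) and T cells minus macrophages or monocytes (-0.09178) in nuclear share. In the few melanoma-gated mitochondria-poor barcodes with a hashtag, 11 of 74 members were higher in Empty vector at a threshold of 0.5%. In Bmal1 WT these were 23 of 79, and 15 of 79 under TMM at the main threshold.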
